A study of Homo sapiens with 6 samples.

Results

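Genes for 6 inhibitory leukocyte receptors were examined: LILRB1, LILRB2 and LILRB4 of the leukocyte immunoglobulin-like receptor family, the collagen receptor gene LAIR1, the B-cell co-receptor gene CD72 and the adhesion receptor gene PECAM1. They were found by symbol as 6 of the 26364 gene rows of the authors' deposited table. LILRB2 was picked for its large fold in that table and the others for encoding receptors with an immunoreceptor tyrosine-based inhibitory motif (ITIM), that is, it was chosen by the log2 fold change of this comparison; all values of these 6 genes are therefore descriptions and not tests. The cells were REH, an established human line of B-cell precursor leukaemia. They received lentivirus with either a scramble hairpin or a hairpin against STAT3, followed by 3 days of puromycin and removal of dead cells. Each group had 3 libraries, which the submitters describe as independent experiments in this single line. The table gives 1 mean over all 6 libraries and 1 comparison for each gene, so no receptor has a measured level for each group or library, except where whole reads could be recovered from a low mean.

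An ITIM is a short tyrosine motif in the cytoplasmic tail of a receptor. When the receptor is engaged, SRC-family kinases phosphorylate it, and the motif then recruits the phosphatases SHP-1, SHP-2 or SHIP-1, which dampen signals from activating receptors and their ITAM chains. LILRB1 and LILRB2 bind HLA class I molecules, and LILRB2 and LILRB4 are best known from monocytes and dendritic cells. LILRB1, LAIR1 and CD72 are also found on B-lineage cells, whereas PECAM1 is best known from endothelium, platelets and myeloid cells.

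LILRB1 and LILRB2 lie in the leukocyte receptor cluster of chromosome 19 and are close relatives in sequence. LILRB2 spans chr19:54273821-54281184 on the minus strand and LILRB1 chr19:54617158-54637528 on the plus strand (GRCh38, GENCODE release 29). The 250 bases before a RefSeq start of each gene (GRCh38.p14) are shown because these 2 regions are near copies, with 90.5% identity over an alignment of 252 positions. They were the most alike pair among the listed starts of the 2 genes. The next pair, at 70.7%, was the same LILRB2 region with a LILRB1 region, from chr19:54630267, that overlaps the one shown. The pair of the 2 genes after that had 49.1%. The region at another LILRB1 start, from chr19:54616879, had at most 48.3% identity with any of LILRB2. The fold changes of the 2 genes had opposite signs, but that of LILRB1 was not called. The LILRB1 region is chr19:54630234-54630483 on the plus strand and the LILRB2 region is chr19:54281111-54281360 on the minus strand. Capitals mark the 22 bases of each that differ from, or have no partner in, the other.

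LILRB1: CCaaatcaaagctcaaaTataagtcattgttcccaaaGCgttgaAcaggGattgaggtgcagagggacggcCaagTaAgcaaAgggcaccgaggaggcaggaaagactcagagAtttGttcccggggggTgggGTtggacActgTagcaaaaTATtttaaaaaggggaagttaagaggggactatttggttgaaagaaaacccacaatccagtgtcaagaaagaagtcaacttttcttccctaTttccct
LILRB2: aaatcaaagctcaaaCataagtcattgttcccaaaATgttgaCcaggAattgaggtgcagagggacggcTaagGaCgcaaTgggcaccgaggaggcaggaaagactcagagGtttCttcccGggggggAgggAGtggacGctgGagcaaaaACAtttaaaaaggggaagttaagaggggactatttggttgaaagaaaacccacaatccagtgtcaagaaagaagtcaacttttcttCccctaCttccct

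Sequence windows from 250 bases before to 50 after a RefSeq start were listed for 5 of the 6 genes, 10 windows in all. The STAT motif TTCNNNGAA, which reads the same on both strands, was found in 1 of the 10, against 7.66% of 35116 windows of all genes. That window was chr19:54280834-54281133, at another start of LILRB2. The motif GAGGAA, bound by PU.1, was found on either strand in 5 of the 10 windows but in none of the 3 of LILRB2, against 27.9% of all windows. These matches describe letters in the windows and no binding was measured.

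Close relatives can share reads. Of all 50-base words in LILRB2 transcripts, 14.1% also stand in a transcript of another gene, with 11.5% in LILRB1, and of 100-base words 3.72% were shared, with LILRB1 alone. The longest identical run between LILRB2 and LILRB1 transcripts was 169 bases, and the next longest, with LILRA1, was 92. For LILRB1, 21.6% of 50-base words were shared and for LAIR1 5.39%. CD72 shared 14.9%, mostly with TESK1, which overlaps it on the opposite strand. For LILRB4 it was 14.2%, mostly with the pseudogene VN1R105P inside it, and for PECAM1 0.233%. How reads that match several genes were assigned, and whether strand was used, is not given in the sources used here, so counts of LILRB1, LILRB2, LILRB4 and CD72 carry this uncertainty.

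The data behind these genes differ widely in depth. Over all genes the means summed to 11485068 normalized counts per library, and the size factors recovered from low means lay between 0.935 and 1.13. STAT3, the target of the hairpin, stands in the authors' deposited table with −1.75 as its log2 fold change, and this sign was used to set the direction of all others, since the table does not name its numerator. Of 14 B-cell precursor markers, 13 had a mean high enough to be tested, among them RAG1, DNTT and PAX5 with means of 20516, 16549 and 10140 in the authors' deposited table, and VPREB1 was listed at 0. Of the tested markers 2 rose and 6 fell at an adjusted p under 0.05 (61.5% called, median −0.21). Of all tested genes 44.5% were called, 21.3% higher and 23.2% lower. PAX5 stood at a log2 fold of 0.32 and RAG2 at −0.52 in the authors' deposited table. Of 20 myeloid markers none was listed at 0, and 6 were tested, with 1 higher and 2 lower (50% called, median −0.06). The called genes were ITGAM at 0.33, CST3 at −0.75 and CSF1R at −0.81, as log2 folds in the authors' deposited table. Another 6 had a fold and no p, a status shared by 74 genes in all. Among them LYZ, S100A9 and ELANE had means of 16.0, 22.2 and 27.9 in the authors' deposited table, above the lowest tested mean of 10.0. Of 14 T and NK cell markers 4, among them CD3D and CD3G, were listed at 0, and CD4 was the 1 tested gene, which did not pass. Of 12 endothelial and platelet markers 5, among them CDH5 and PF4, were listed at 0 and none was tested.

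One library held most of the myeloid-marker reads among the low means. For all 5153 genes with a mean below 6 the whole reads of each library could be recovered, without a label that says which sample a library is. The library with most myeloid-marker reads, called library A here, held 23.9% of all 40102 such reads but 52.3% of the 107 reads of 8 myeloid markers. Because library A was chosen by these myeloid-marker reads, its excess of them is only a description. Library A also had the highest size factor, 1.13. Of these 8 markers 4 had more reads in library A than in the other 5 libraries together and 4 did not. MNDA, a nuclear antigen of myeloid cells, had 14 reads in library A and 0 in each of the others, and TYROBP, an ITAM adaptor gene, had 26 of 29 there. VCAN and CD163 were placed otherwise, with 4 of 33 and 1 of 14 reads in library A and 10 and 6 in library B. FCER1G, the other ITAM adaptor gene, had 22 of 26 reads in library A. The excess was not limited to myeloid markers, as the T and NK cell markers NKG7 and NCAM1 had 18 of 37 and 9 of 15 reads there. Because no label ties a recovered library to a sample, none was assigned to the scramble or the shSTAT3 group here.

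Levels were compared between genes as mean normalized count per kb of exon. LAIR1 stood highest of the 6 at 207 per kb, above 67.7% of tested genes, followed by CD72 at 146 per kb, above 57.5%. LILRB2 had 21.7 per kb and LILRB1 10.0 per kb, above 16.0% and 8.80% of tested genes. LILRB4 and PECAM1 were lowest at 0.679 and 0.497 per kb. The activating relative LILRA2 was higher than all of them at 257 per kb. LAIR1 and CD72 were thus the well-expressed members, and LILRB2 was a low-expressed gene. Without values per library it cannot be said which neighbours in this order differ beyond their spread.

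**Figure D1:**
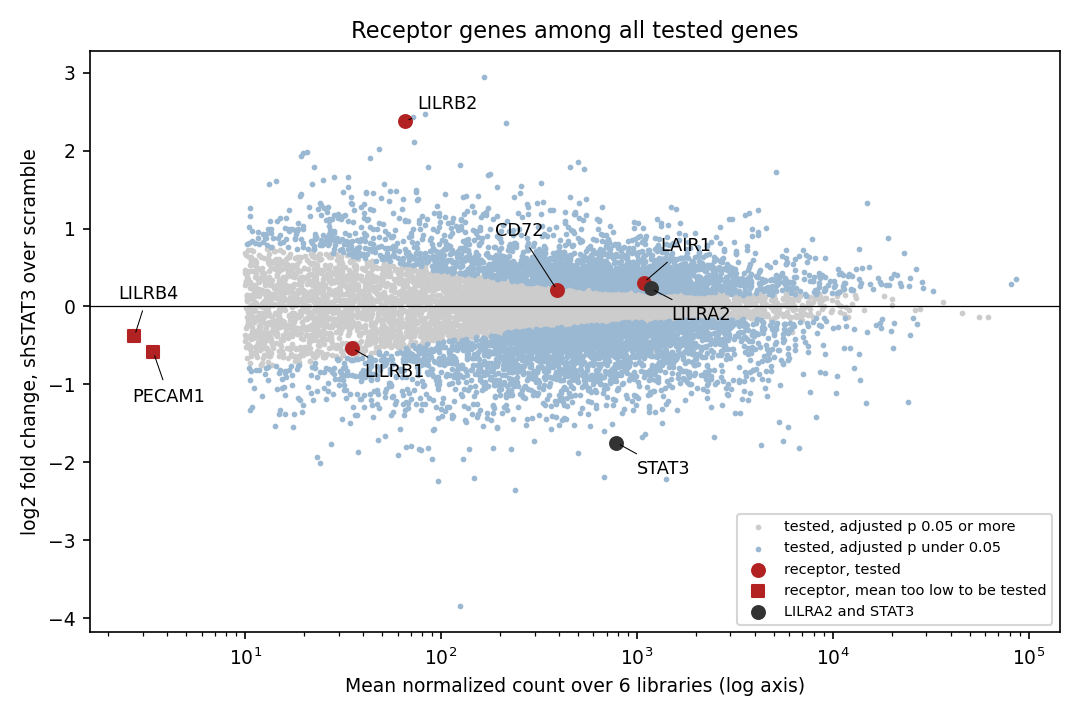
Each point is a gene, with its mean normalized count over 6 libraries on a log axis and its log2 fold change, shSTAT3 over scramble, on the vertical axis. LILRB2, at a mean of 65.4 and 2.38 on the vertical axis, lies near the top, LAIR1 and CD72 lie close to 0, and LILRB4 and PECAM1 lie below the lowest mean that was tested, 10.0.

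LILRB2, an HLA class I receptor, is listed in the authors' deposited table with a mean of 65.4 normalized counts and a log2 fold of 2.38, which is 5.20-fold higher in shSTAT3 (95% interval 1.85 to 2.90 on the log2 scale). If the fold is taken as the ratio of the group means, it implies with the mean about 21.1 normalized counts in scramble and 110 in shSTAT3. The deposited fold is shrunken, that is, pulled toward no change. The scramble level may therefore be too high, and the shSTAT3 level and the 5.20-fold too low. The mean corresponds to between 367 and 443 reads over the 6 libraries, too many to be placed in single libraries. In bulk RNA, more cells with a transcript and more of it per cell cannot be told apart. By fold it ranked 4 among the 12061 tested genes. Because LILRB2 was picked for this value, the rank and the interval are descriptions.

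The fold changes are shrunken toward 0 and the intervals, worked out from each fold and its p-value, are those of shrunken values. Levels given as a percentage of scramble come from the same shrunken folds. A pattern of likeness could be taken only over this 1 comparison. The 5 genes called at an adjusted p under 0.05 with a mean of at least 50 whose fold was nearest were SH3BP5-AS1, KCNJ2-AS1, LOC101927501, LINC00324 and MUC19. Their log2 fold changes in the authors' deposited table lay between 1.85 and 2.47, within 0.524 of that of LILRB2. None of them encodes a leukocyte receptor.

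LILRB1, the other HLA class I receptor of the family, is listed in the authors' deposited table with a mean of 35.1 and a log2 fold of −0.54 (95% interval −1.09 to 0.02). Its adjusted p was 0.114 in the authors' deposited table, so it was not called. Its reads numbered between 197 and 237 over the 6 libraries. The intervals of LILRB1 and LILRB2 do not overlap, although the difference between the 2 genes was not tested and they share words as given above. As LILRB2 was picked for its fold, this contrast is a description.

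LAIR1, which binds collagens, was higher with a log2 fold of 0.31 at a mean of 1082 in the authors' deposited table, or 1.24-fold (95% interval 0.10 to 0.52, adjusted p = 0.0119 by the authors' DESeq2). It lies at chr19:54351384-54370558 on the minus strand, 70.2 kb from LILRB2. CD72, at chr9:35609533-35646810 on the minus strand, binds semaphorin 4D and restrains B-cell receptor signals. Its row in the authors' deposited table gives a mean of 392 and a log2 fold of 0.21 (95% interval −0.03 to 0.45, adjusted p = 0.160 by the authors' DESeq2) and was not called. TESK1, the gene that overlaps CD72, stood at 0.06 in the authors' deposited table.

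Of the 4 members that were tested, 2 (LILRB2 and LAIR1) were called higher and none lower at an adjusted p under 0.05 in the authors' deposited table, and at an unadjusted p under 0.05 the counts were the same. Among all tested genes 44.5% were called, 21.3% higher and 23.2% lower, and nothing is read from the count of members, since they were chosen with this comparison known. The median log2 fold change of the 4 was 0.26, against 0.00265 for all tested genes.

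**Figure D2:**
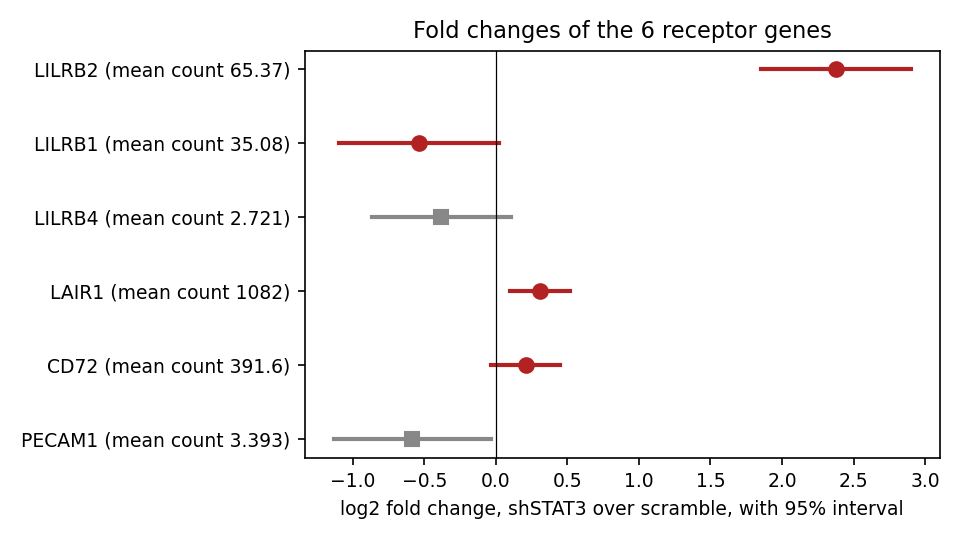
Log2 fold changes, shSTAT3 over scramble, of the 6 receptor genes with the 95% interval implied by fold and p; squares in grey are genes with a mean too low to be tested. The interval of LILRB2 (1.85 to 2.90), the gene picked for its fold, lies above those of the other 5 genes. Those of LILRB1, LILRB4 and CD72 include 0.

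LILRB4, a receptor of apolipoprotein E and fibronectin at chr19:54643889-54670359 on the plus strand, had only 18 reads in all. Library A held 15 of them, 3 others held 1 each and the remaining 2 held 0. Its row in the authors' deposited table gives a log2 fold of −0.38, a p of 0.126 and no adjusted p. PECAM1, a self-binding adhesion receptor at chr17:64319415-64413776 on the minus strand, had 22 reads, with 15 in library A and 1, 3, 1, 0 and 2 in the others. The row of PECAM1 in the authors' deposited table gives a log2 fold of −0.58, a p of 0.0382 and no adjusted p. Both genes therefore had most of their reads in the library that also held most reads of MNDA, FCER1G and TYROBP, and 3 LILRB4 reads and 7 PECAM1 reads lay outside it. Fold changes without library A were not computed.

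Reads of the activating relative LILRA1 were spread otherwise, with 4 in library A and 4, 11, 5, 2 and 6 in the others. The ITIM adaptor gene SIT1, which lies beside CD72, had 4 reads in library A and 2, 5, 3, 1 and 6 in the others. For both genes another library held more reads than library A. LILRB1, LILRB2, LAIR1 and CD72 have means above 6, so their reads could not be placed in libraries and the part of library A in their values was not tested.

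**Figure D3:**
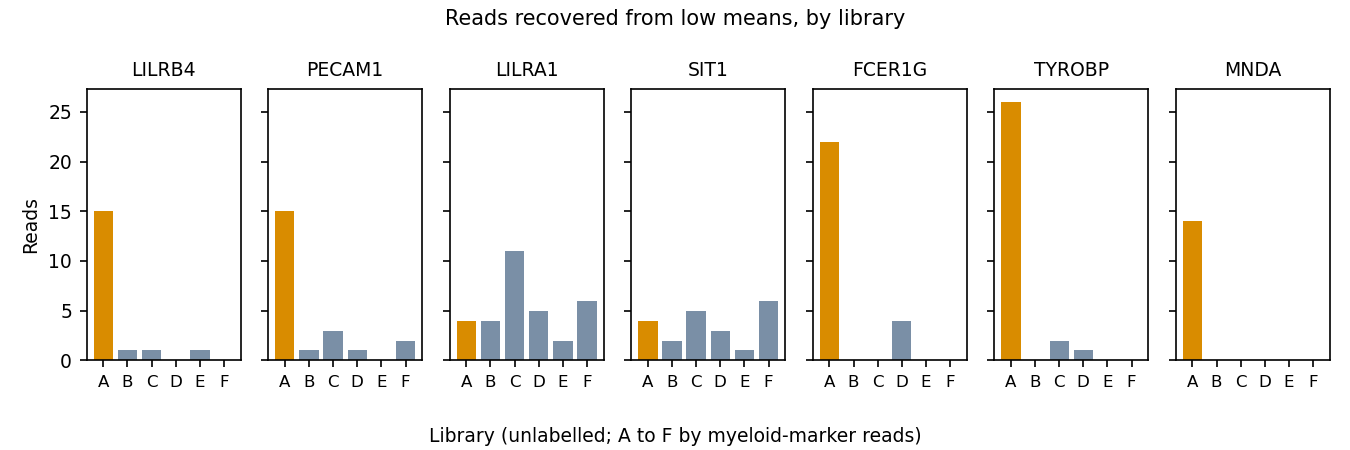
Whole reads recovered for each of 6 unlabelled libraries (A to F, in order of their myeloid-marker reads) for 7 low-count genes chosen after their values were seen. Library A, in orange, holds 15 of 18 LILRB4 reads, 15 of 22 PECAM1 reads and all 14 MNDA reads, whereas LILRA1 and SIT1 are spread over all 6.

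The rest of the family had few or no reads, apart from LILRA2. Of 15 genes of the LILR and LAIR family 14 had a row, and 4 were tested. LILRB2, LAIR1 and LILRA2 were higher, LILRB1 was not called and none was lower (75% called, against 44.5% of all tested genes). Their median was 0.27, and none was lower at an unadjusted p under 0.05 either. Apart from LILRA2 these are receptors chosen with this comparison known. The list that holds LILRA2 was also written with earlier results of these data known, so nothing is read from the count. LILRA2, an activating receptor that pairs with FCER1G, was higher with a log2 fold of 0.23 at a mean of 1173 in the authors' deposited table (95% interval 0.06 to 0.40, adjusted p = 0.0214 by the authors' DESeq2). Of its 50-base words 18.2% also stand in other genes. LILRA3, LILRA4, LILRA5, LILRA6 and LILRP2 had 1 read each over all 6 libraries, LILRB3 had 3, and LILRB5 and LAIR2 were listed at 0.

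LILRB2 was picked for its large fold, so it is only a description that none of its 13 tested neighbours on the chromosome reached that fold. Within 250 kb on either side 25 other genes have a row, and 13 of them were tested, with 5 higher and 2 lower (53.8% called, median log2 fold change 0.15). The nearest genes with a row were LILRB5 and RPS9 at lower coordinates, 16.5 and 24.8 kb away, and the microRNA gene MIR4752 and LILRA5 at higher coordinates, 0.925 and 25.9 kb away. LILRB5 and MIR4752 were listed at 0, LILRA5 had 1 read, and RPS9, a ribosomal protein gene, was higher with a log2 fold of 0.14 in the authors' deposited table.

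The others that rose in the authors' deposited table were LAIR1, the tRNA splicing endonuclease gene TSEN34 (log2 fold 0.28), LENG8 (0.72) and LENG9 (0.51). LENG1 and CDC42EP5 fell, by log2 folds of −0.56 and −0.66 in the authors' deposited table. NDUFA3, TFPT, PRPF31, CNOT3, MBOAT7 and LENG8-AS1 were not called, with values between −0.11 and 0.67 in the authors' deposited table; LENG8 and LENG8-AS1 overlap, so their reads may be mixed. The largest fold among the 13, that of LENG8, had an interval of 0.53 to 0.90. It lies below the interval of LILRB2, the gene picked for its fold.

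**Figure D4:**
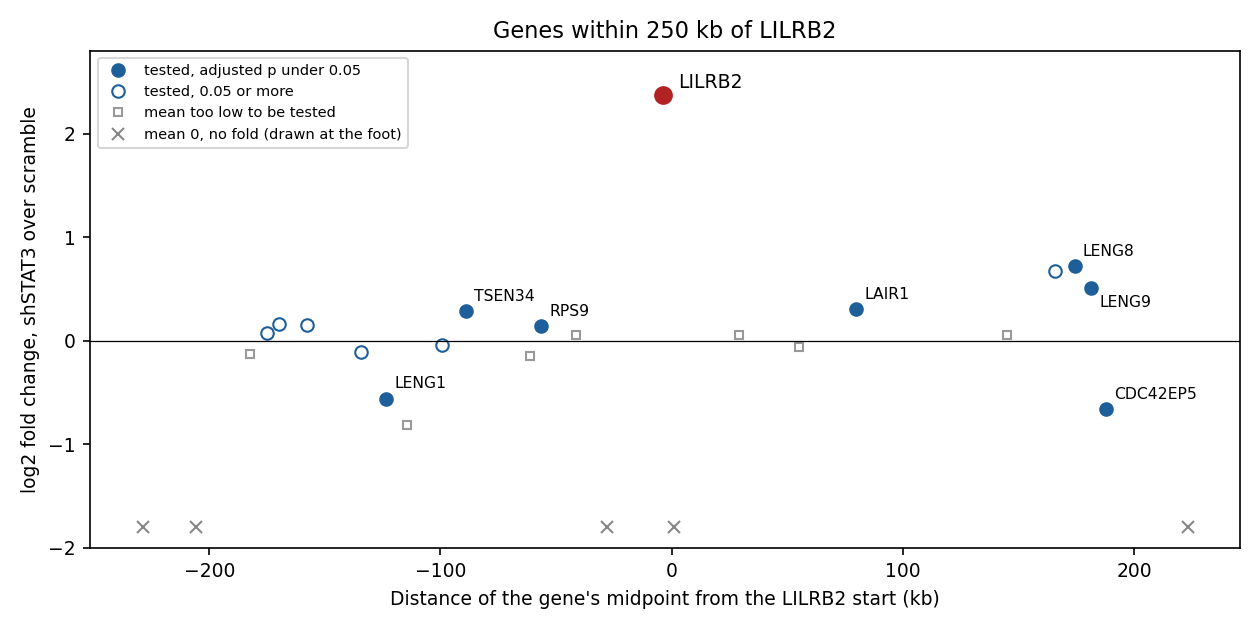
Log2 fold change, shSTAT3 over scramble, of the genes within 250 kb of LILRB2 against the distance of each gene's midpoint from the LILRB2 start in kb. LILRB2 stands at 2.38 and the tested neighbours lie between −0.66 and 0.72; crosses at the foot are 5 genes listed at 0, which have no fold.

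Genes for ligands of these receptors included HLA-B and HLA-C, which rose. Of 26 ligand genes 14 were tested, with 7 higher and 3 lower (71.4% called, median 0.34). HLA-B and HLA-C, whose products LILRB1 and LILRB2 bind, were higher in the authors' deposited table with log2 folds of 0.51 and 0.57, and their light chain gene B2M with 0.17. HLA-G, a high-affinity ligand of LILRB2, had a mean of 36.5 and was not called (0.36, adjusted p = 0.307 by the authors' DESeq2 in the authors' deposited table). SEMA4D, the ligand of CD72, was higher with a log2 fold of 0.49 in the authors' deposited table (95% interval 0.30 to 0.68). CD38, a partner of PECAM1, had a log2 fold of −0.23 and was not called (adjusted p = 0.0946 by DESeq2, both from the authors' deposited table).

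The 3 ligand genes that fell were of other kinds. RTN4, which encodes the Nogo protein that LILRB2 can bind, is listed in the authors' deposited table with a log2 fold of −0.45. The LAIR1 ligand genes COL1A1 and COLEC12, the first a fibrillar collagen and the second a collectin, had values of −0.75 and −0.91 at means of 51.3 and 40.7 in the authors' deposited table.

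Kinases that phosphorylate ITIMs, with CSK, which restrains them, gave 0 higher and 3 lower of 8 tested genes (37.5% called, median −0.17); at an unadjusted p under 0.05 it was 1 higher and 4 lower. LYN, the main SRC-family kinase of ITIM signalling in B cells, had the lowest value of the list in the authors' deposited table, 28.1% of scramble (log2 fold −1.83, 95% interval −2.13 to −1.52). FYN was lower in the authors' deposited table, with a log2 fold of −0.23. CSK stood at 0.18 in the authors' deposited table and was not called.

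Phosphatases and adaptors recruited by ITIMs moved both ways, with 4 higher and 2 lower of 11 tested (54.5% called, median 0.10). PTPN6 and PTPN11, which encode SHP-1 and SHP-2, both fell in the authors' deposited table, by log2 folds of −0.35 (95% interval −0.55 to −0.16) and −0.27 (95% interval −0.41 to −0.13). INPP5D, which encodes SHIP-1, was not called at −0.09 in the authors' deposited table. The docking and adaptor genes GAB2, GRB2, DOK3 and SHC1 were higher in the authors' deposited table, with log2 folds of 0.62, 0.31, 0.23 and 0.22.

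On the activating side, 4 of 11 tested ITAM chains and effectors rose and 1 fell (45.5% called, median 0.00234). CD79A, which carries an ITAM for the B-cell receptor, was higher in the authors' deposited table with a log2 fold of 0.63, as were the exchange factor gene VAV1 with 0.36 and, named after its value was seen, the kinase gene SYK with 0.22. PLCG2, the phospholipase of B-cell receptor signals, was lower in the authors' deposited table, with a log2 fold of −0.29. FCER1G and TYROBP, adaptors of activating myeloid receptors, had means of 3.95 and 4.35 in the authors' deposited table and were not tested. TYROBP had a p and no adjusted p there, whereas FCER1G had a fold and no p.

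Other ITIM receptors gave no common direction. Of 42 genes 41 had a row, 13 were listed at 0 and 8 were tested, with 1 higher and 2 lower (37.5% called, median −0.05). CD22, the sialic acid receptor of B cells, had the highest mean of them at 2631 and fell in the authors' deposited table, with a log2 fold of −0.29 (95% interval −0.44 to −0.15). SIRPA, the receptor of CD47, stood in the authors' deposited table at 43.5% of scramble (log2 fold −1.20, 95% interval −1.62 to −0.78). FCRL1, an Fc receptor-like gene of B cells, was higher in the authors' deposited table, with a log2 fold of 0.89 at a mean of 26.1. Its interval of 0.29 to 1.49 lies below that of LILRB2, the gene picked for its fold.

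Across the 6 lists, without the 6 receptors themselves, 53 genes were tested, of which 17 rose and 11 fell (52.8% called, against 44.5% of all tested genes). Their median log2 fold change was 0.10.

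**Figure D5:**
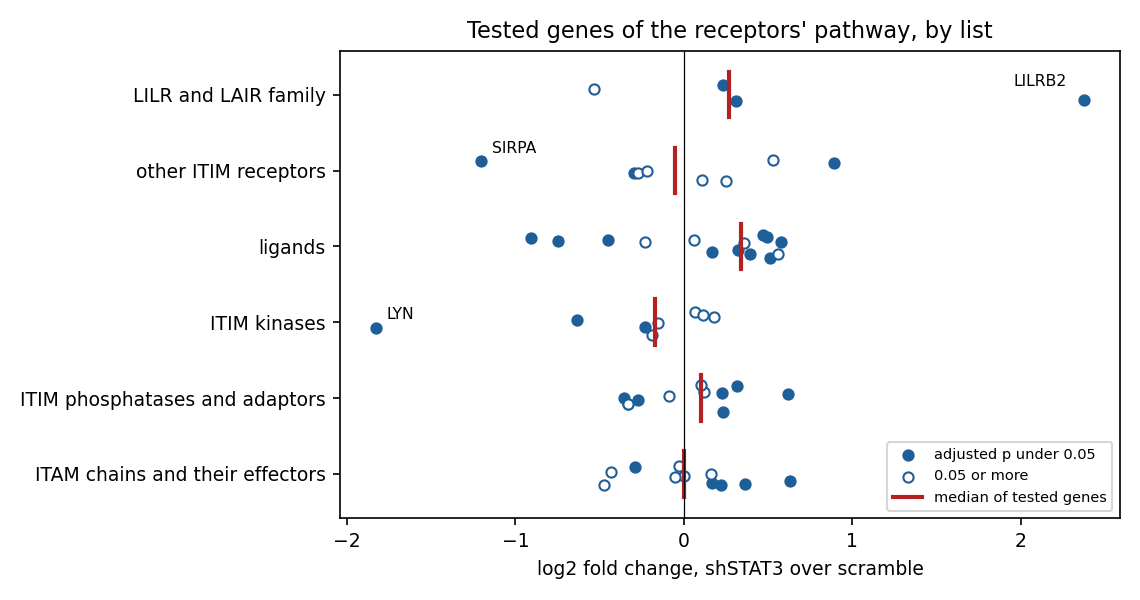
Log2 fold change, shSTAT3 over scramble, of the tested genes of 6 lists; filled points passed an adjusted p of 0.05, and the red line is the median of a list. LILRB2 at 2.38, LYN at −1.83 and SIRPA at −1.20 are the points farther than 1 from 0.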

How the data were processed

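RNA-seq libraries of total RNA from 6 REH cultures, 3 scramble and 3 shSTAT3, were made by the TruSeq RNA v2 protocol, as the labels' protocols say. In addition, the submitters' processing notes list bcl2fastq 2.19, Trimmomatic, Bowtie2, Picard, featureCounts and DESeq2 with the build hg38; for settings, annotation and strand nothing is given in the sources used here. The mean is a normalized signal (read count over size factor, averaged by the authors), and the deposited log2 fold change, p-value and adjusted p-value are DESeq2 columns per the file headers.

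A gene was tested where the authors gave an adjusted p (12061 genes), and called at an adjusted p under 0.05. Standard errors were the log2 fold over the normal quantile that matches its p-value, with 95% intervals from them. Whole reads behind means below 6 were solved from 6 step sizes, uniquely for all 5153 genes within 4e-09. Exon lengths, positions and transcript words came from GENCODE 29 (lengths for 94.7% of tested genes), and sequence windows from RefSeq; promoter regions were aligned with Biopython 1.88. The steps were tested on simulated data. Python 3.11.15 was used with pandas 2.3.3 and scipy 1.17.1.

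The members, the 10 gene lists and the rules were chosen with earlier results of these data known. Named were the 6 receptors, tested genes of their family and of the neighbours, genes fixed by name, the 5 nearest folds, and up to 3 called genes with the smallest adjusted p of each other list, and RAG1, DNTT, VPREB1, MNDA, SIT1, SYK, DOK3, SHC1, HLA-G, COL1A1, COLEC12, markers listed at 0 and low-count genes were named after their values were seen. Some genes that this rule names are not reported here. Of the listed symbols 3 had no row. Other thresholds, filters and word lengths were tried as alternatives. P-values measure the spread between these cultures of 1 line.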

Additional observations from a re-analysis of the deposited data

How the results depend on the processing

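LILRB2 was called under all 5 other thresholds and filters, but it was picked for its large fold, so this is a description. Of the 4 tested members, LAIR1 lost its call at an adjusted p under 0.01 and with a minimum of 1.5-fold, so the count of called members fell from 2 to 1 under each. With a minimum of 1.5-fold, the pathway genes called were 3 higher and 5 lower in place of 17 and 11, and the LILRB2 neighbours 1 higher and 1 lower in place of 5 and 2. At an adjusted p under 0.01 the neighbours were 2 higher and 0 lower by the authors' DESeq2 (2 lower at an unadjusted p under 0.05), and with a mean of at least 50, 1 was lower. With words of 100 bases in place of 50 the share of LILRB2 words found in other genes was 3.72% in place of 14.1%. Of 100 counts of single lists under these alternatives, 80 stayed equal or within 1.5 times and 20 moved. The 80 include counts of 0 that stayed 0, also from lists with 1 or 0 tested genes, which could hardly move. No paired analysis was possible because the table holds no value per library; for the same reason leaving out a replicate or library A and another normalization were not run. Depth limits LILRB4 and PECAM1, with 18 and 22 reads, most.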

Other observations

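Of 19 other ITIM receptor genes with recovered reads, 7 had most of them in library A and 12 did not, and the library held 24.8% of their 206 reads, beside 23.9% over all low-count genes. Among receptor and signalling genes known from myeloid cells the placement was mixed. CD33 had 8 of 12 reads there, SIGLEC5 and CLEC12A 4 of 4 each, the kinase gene FGR 10 of 13 and the adaptor gene DOK2 13 of 22, whereas CD300LF had 11 of 35 there and 10 in library C, and LILRB3 and SIGLEC10 had 1 of 3 each. PVR, a nectin-like adhesion receptor gene, and the ligand gene FN1 had 4 of 5 and 5 of 6 reads in library A. B-lineage receptor genes were placed otherwise. FCRL2 had 2 of 30 reads in library A and up to 11 in another library, and FCRL5 had 3 of 29 and up to 9. CD300A, an inhibitory receptor of several leukocyte types, had 20 of 35 reads in 1 library other than A. These genes were chosen after their reads were seen, and no recovered library was assigned to a group.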
